A study of Mus musculus with 203 samples.

Results

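The comparison described here set lung parenchyma of mice given house dust mite extract (HDM) together with cigarette smoke (HDM.CS) against lung parenchyma of mice given phosphate buffered saline (PBS) together with the same smoke (PBS.CS). It asked how lungs given allergen and smoke differ from lungs given smoke alone, which is the asthma arm of an experimental overlap of asthma and chronic obstructive pulmonary disease. Libraries were chosen by their titles: 10 HDM.CS and 10 PBS.CS parenchyma libraries collected at week 11, 20 of the 160 RNA-sequencing libraries of that week, beside 43 of week 3 in the series. All of the animals were female Balb/C mice of 18 to 20 weeks that received intranasal instillations 5 days a week for 3 weeks and then 3 times a week from week 4 to week 11. Both groups were exposed to cigarette smoke 2 times a day on 5 days a week for 8 weeks, and neither received dexamethasone (DEX). The only labelled difference was the instilled HDM or PBS. For context, the HDM effect was also measured in parenchyma of mice kept in air (HDM.AIR against PBS.AIR, 20 libraries), in dissected airway under smoke (20 libraries) and in parenchyma under smoke with DEX in week 11 (20 libraries). Each library is named by the X code of its title, and the labels do not say whether each one came from a separate mouse, so the p-values measure the spread between libraries.

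House dust mite extract carries allergens with protease activity together with microbial ligands, and repeated instillation without adjuvant sensitises mice and inflames their airways. The response is classically built from type 2 cytokines, eosinophils, mucus-making cells and allergen-specific antibodies, and house dust mite in particular also draws in T helper cells that make interleukin 17. Cigarette smoke by itself recruits macrophages and neutrophils to the lung and loads alveolar macrophages with lipid. The saline control used here was exposed to the same smoke. In bulk tissue, a higher or lower level can come from more or fewer cells of a type or from more or less RNA in each cell, and these cannot be told apart.

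Reads assigned to genes numbered 23795405 to 32942613 a library in HDM.CS (median 26588266.5) and 23966697 to 33654831 in PBS.CS (median 27808224), with no difference between the groups (2-sided permutation p = 0.91). The labelled tissue was checked against its markers. The alveolar type II gene Sftpc measured 8591 to 18990 counts scaled to library size (CPM) in these 20 libraries and 3516 to 12430 CPM in the 20 airway libraries under smoke, and the smooth muscle gene Acta2 measured 21.9 to 77.3 CPM against 89.5 to 634 CPM in airway. The first principal component of the 500 most variable genes held 62.6% of the variance and placed all 10 HDM.CS libraries at scores of 17.3 to 41.1 and all 10 PBS.CS libraries at -37.3 to -21.6 (2-sided permutation p = 6e-05 over 100000 resamples). The second component held 8.01% and did not separate the groups (p = 0.81). It set apart X74 and X173, both PBS.CS, at scores of 25.1 and 26.2, which carried the skeletal muscle transcript Acta1 at 24.6 and 23.8 CPM where the other 8 PBS.CS libraries held 0 to 0.172 CPM. X173 also held the highest level of the club cell secretoglobin Scgb1a1, 59870 CPM, above all PBS.CS airway libraries (32490 to 57570 CPM). Its code and X174 are the only ones that break the alternation of odd airway and even parenchyma codes in the titles, while its Sftpc (18990 CPM) and Acta2 (21.9 CPM) lay outside the airway ranges. Leaving out both libraries gave 471 genes called higher and 37 called lower, and the adjusted p without them is given for genes below that then no longer passed.

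**Figure D1:**
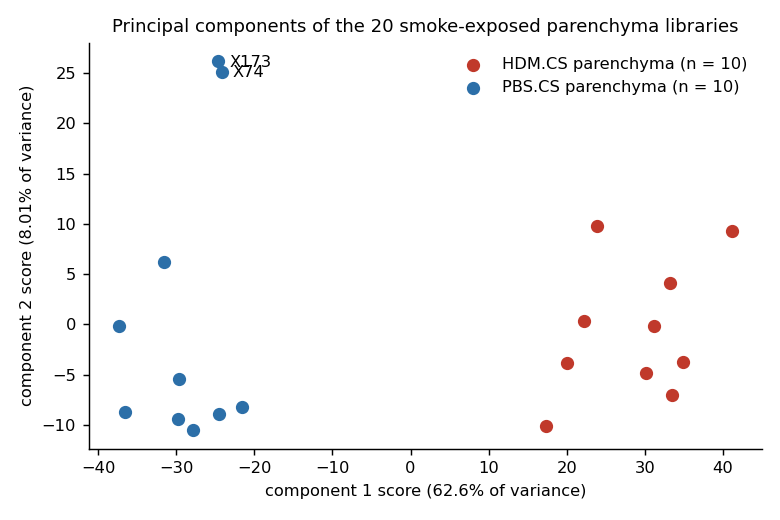
Scores of the 20 libraries on the first (horizontal axis) and second (vertical axis) principal components of the 500 most variable genes, in log2 CPM units, with HDM.CS in red and PBS.CS in blue. Every HDM.CS library lies at 17.3 or above and every PBS.CS library at -21.6 or below on the horizontal axis, and X74 and X173 lie above 25 on the vertical axis.

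Gene levels were compared between the groups in a limma-voom fit of the 160 libraries of week 11. A gene was called higher or lower in HDM.CS when its Benjamini-Hochberg adjusted p in limma-voom was under 0.05 and its log2 fold change (log2FC) was at least 1 in size. A gene is said to have risen or fallen when it passed the adjusted p alone. Of 18250 genes tested, 495 were called higher (2.71%) and 41 were called lower (0.225%). In all, 1373 rose (7.52%) and 441 fell (2.42%). The counts of list genes below are to be read beside these shares of all genes tested, and no list was tested against them. All 10 HDM.CS libraries lay above all 10 PBS.CS libraries for 455 genes (2.49%) and below them for 36 genes (0.197%). Genes called higher comprised 275 protein-coding genes (55.6%), immunoglobulin segments (32.1%) and 8 T cell receptor segments, and their median log2FC was 2.06. In 39 of them no PBS.CS library held more than 3 counts, and the median with these genes at their lower bound was 1.90. Genes called lower comprised 37 protein-coding genes, with a median log2FC of -1.34 over all 41. The median log2FC over all genes tested was 0.01. When the fit held only the 20 libraries compared, 1622 genes rose and 1291 fell, against 1373 and 441 in the fit of all 160 libraries. The clock gene Dbp divided the libraries by their codes in the same way in both groups, with 8.20 to 13.1 CPM for codes up to X80 and 43.03 to 62.8 CPM for codes X81 to X120. For codes over X120 it measured 1.91 to 3.07 CPM in HDM.CS, and in PBS.CS it ranged from 2.48 CPM to the 73.3 CPM of X173. The direction of the group difference held in each of these 3 code ranges for 492 of the 495 genes called higher and 38 of the 41 called lower. These genes were called from the same libraries, so such agreement was favoured in advance and is no separate check of the calls.

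**Figure D2:**
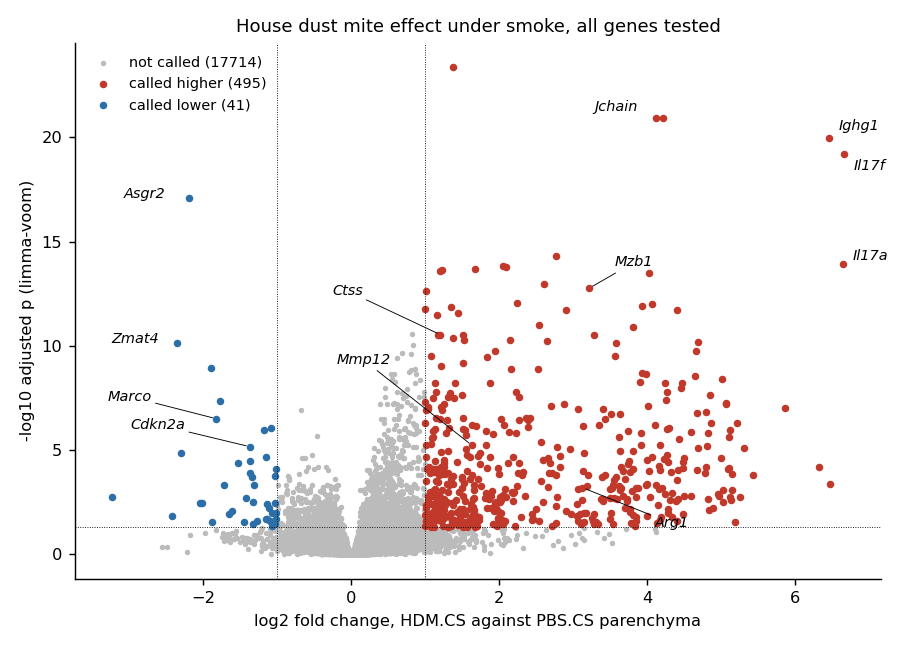
Log2 fold change of HDM.CS against PBS.CS parenchyma (horizontal axis) and -log10 of the limma-voom adjusted p (vertical axis) for the 18250 genes tested, with the 495 genes called higher in red, the 41 called lower in blue and the rest in grey. Dotted lines mark log2FC of 1 and -1 and the adjusted p of 0.05, and Il17f, Il17a and Ighg1 lie at log2FC of 6.46 to 6.66.

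The T helper 17 cytokines had the highest log2FC of all genes tested. Il17a (chr1:20730905-20734496, GRCm38), the founding ligand of this axis, measured 10.4 to 27.96 CPM in HDM.CS (median 15.5) and 0.0360 to 0.314 CPM in PBS.CS (median 0.159). Its neighbour on chromosome 1 Il17f (chr1:20777146-20790617), which encodes a ligand of the same receptor, measured 5.55 to 16.0 CPM (median 10.3) against 0 to 0.386 CPM (median 0.0680). Neither gene overlapped between the groups, and the log2FC was 6.65 ± 0.67 (SE, n = 10 and 10, limma-voom adjusted p = 1.14e-14) for Il17a and 6.66 ± 0.56 (adjusted p = 5.92e-20) for Il17f. Il21, the cytokine of follicular helper T cells that drives B cells towards antibody secretion, measured 0.221 to 1.49 CPM against 0 to 0.146 CPM (log2FC 3.62 ± 0.61, adjusted p = 2.37e-06). Its receptor Il21r rose by less, from 3.96 to 7.71 CPM in PBS.CS to 8.78 to 13.4 CPM in HDM.CS (log2FC 0.91, adjusted p = 0.0195). In all, 5 of the 15 tested genes of the IL-17 and IL-21 axis rose and none fell. The neutrophil chemokines Cxcl1 and Cxcl2, which interleukin 17 is known to induce in epithelium, did not rise. Cxcl1 measured 30.5 to 83.2 CPM in HDM.CS and 45.7 to 102.1 CPM in PBS.CS (log2FC -0.58, adjusted p = 0.14). The lower level of Cxcl1 passed in a fit of the 20 libraries alone (adjusted p = 0.024) and with quality weights (adjusted p = 0.012). It did not pass with edgeR, with DESeq2 or with only the 80 parenchyma libraries in the fit. Cxcl2 fell from 9.74 to 25.6 CPM to 5.23 to 13.4 CPM (log2FC -0.74, adjusted p = 0.031). The adjusted p of Cxcl2 was over 0.05 in 7 of the 20 fits that each left out 1 library (X54, X74, X118, X134, X154, X158 or X178, highest 0.073), and was 0.091 with edgeR and 0.071 with DESeq2. Among 12 neutrophil chemokines and growth factors 1 rose, the platelet and macrophage chemokine Pf4 (log2FC 1.15, adjusted p = 2.87e-07), and 2 fell, the other fall being the growth factor Csf2 (log2FC -0.72, adjusted p = 0.00181).

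Antibody transcripts rose across isotypes and light chains. Ighg1 (chr12:113325240-113330523), the constant region of immunoglobulin G1, measured 896 to 4313 CPM in HDM.CS (median 3262) and 12.7 to 128.8 CPM in PBS.CS (median 21.7). The lowest HDM.CS library, X178, still lay above every PBS.CS library (log2FC 6.46 ± 0.53, adjusted p = 1.01e-20). The kappa light chain Igkc measured 731 to 2528 CPM against 52.4 to 142.1 CPM (log2FC 4.22), and Jchain, which joins secreted immunoglobulin A and M into polymers, measured 786 to 2289 CPM against 42.05 to 140.8 CPM (log2FC 4.12). Other isotypes separated the groups as well, with log2FC of 4.24 for Ighg2b and 2.91 for Ighm. Igha, named after its values were seen, had a log2FC of 2.61. In all, 8 of the 10 tested immunoglobulin constant region genes rose, with a median log2FC of 3.20. Ighe, the constant region of immunoglobulin E, held at most 2 counts in any PBS.CS library and measured 0 to 1.31 CPM (median 0.0761) in HDM.CS, so that its call (adjusted p = 0.026) rested on few reads. It was lost without X74 and X173 together (adjusted p = 0.060) and in the fits without X78, X98 or X158 (highest 0.080). Of the variable segments tested 74.4% rose, all of them past the log2FC of 1, and none fell, with a median log2FC of 3.74. Segments share sequence, so reads could be divided between near-identical copies and single segments are not described.

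The genes of the cells that secrete antibody rose with them. Mzb1, a chaperone of antibody-secreting cells, measured 24.6 to 81.7 CPM against 2.79 to 11.6 CPM (log2FC 3.22 ± 0.35, adjusted p = 1.69e-13), and Derl3, which works in protein disposal from the endoplasmic reticulum, measured 4.43 to 13.2 CPM against 0.853 to 1.87 CPM (log2FC 2.65). Neither these nor 2 genes named after their values were seen, the plasma cell survival receptor Tnfrsf17 (log2FC 2.39) and the transcription factor Irf4 (log2FC 1.40), overlapped between the groups. The B cell receptor component Cd79a rose by a log2FC of 1.00, with overlap, and 6 of the 10 HDM.CS libraries exceeded every PBS.CS library. Cd79a did not pass with edgeR (adjusted p = 0.071) or DESeq2 (adjusted p = 0.067). Over the 20 B cell and plasma cell genes 12 rose and none fell, with a median log2FC of 0.92. The inhibitory Fc receptor Fcgr2b, which binds antibody in immune complexes, had the smallest p-value of all genes, at 144.6 to 225 CPM against 53.7 to 82.7 CPM (log2FC 1.39 ± 0.10, adjusted p = 4.23e-24).

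Among 16 lymphoid tissue chemokines and lymphotoxins 4 rose and none fell. Cxcl13, the attractant of B cell follicles, measured 16.2 to 49.96 CPM against 5.64 to 14.0 CPM (log2FC 1.66, adjusted p = 0.00731). Ccl19, which guides T cells and dendritic cells, measured 4.09 to 9.11 CPM against 0.546 to 2.21 CPM with no overlap (log2FC 2.21, adjusted p = 0.043), although its adjusted p was over 0.05 in 16 of the 20 fits that each left out 1 library, all but those without X58, X98, X138 or X198 (highest 0.074), and was 0.065 without X74 and X173 together. Lymphotoxin alpha, Lta, and Tnfrsf13c, the receptor through which B cells take up their survival signal, also rose (log2FC 0.86 and 1.04), in each case with an adjusted p above 0.05 without X154 (0.064 and 0.055).

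T cell genes rose by smaller amounts. Cd4, the co-receptor of helper T cells, measured 22.8 to 29.4 CPM in HDM.CS and 6.27 to 14.0 CPM in PBS.CS (log2FC 1.25 ± 0.31, adjusted p = 0.00228), and the receptor subunit Cd3e measured 10.0 to 13.2 CPM against 3.41 to 7.38 CPM (log2FC 1.11). Icos, the costimulatory receptor of follicular helper cells, rose by a log2FC of 1.51 and the surface receptor Cd6 by 1.50, both without overlap. In the list of T cell and activation genes 11 of 20 rose and none fell, with a median log2FC of 0.82. Cd8a, the co-receptor of cytotoxic T cells, named after its values were seen, measured 3.35 to 7.74 CPM against 2.33 to 6.33 CPM (log2FC 0.34, adjusted p = 0.73). Prf1, perforin, measured 1.86 to 3.92 CPM against 1.55 to 5.94 CPM (log2FC -0.28, adjusted p = 0.70). Of 14 cytotoxic lymphocyte genes none rose and 1 fell, Klrg1, a receptor of terminally differentiated killer cells, at 0.621 to 1.87 CPM against 1.28 to 3.49 CPM (log2FC -0.81, adjusted p = 0.014), a fall that did not pass without X74 and X173 together (adjusted p = 0.052).

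Receptors that restrain T cells separated the groups. Pdcd1, which encodes PD-1, measured 4.14 to 7.36 CPM against 0.361 to 1.51 CPM (log2FC 2.54 ± 0.30, adjusted p = 9.46e-12). Lag3 measured 2.52 to 6.02 CPM against 0.364 to 1.49 CPM (log2FC 2.06), Tigit 2.52 to 4.19 CPM against 0.241 to 1.31 CPM (log2FC 2.03) and Ctla4 4.79 to 8.29 CPM against 1.34 to 3.12 CPM (log2FC 1.83). None of these 4 receptors overlapped between the groups. The regulatory cytokine Il10, named after its values were seen, had a log2FC of 1.82. Foxp3, the defining factor of regulatory T cells, measured 1.02 to 1.94 CPM against 0.517 to 2.00 CPM (log2FC 0.23, adjusted p = 0.79). In the list of 16 checkpoint and regulatory genes 9 rose and none fell, with a median log2FC of 0.59.

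The interferon gamma axis rose in part. Ifng measured 0.408 to 1.28 CPM against 0.144 to 0.471 CPM (log2FC 1.83 ± 0.43, adjusted p = 0.00113), and Cxcl9, a chemokine that it induces, measured 5.20 to 35.9 CPM against 0.510 to 3.89 CPM (log2FC 2.45 ± 0.71, adjusted p = 0.012). The immunity-related GTPase Igtp (chr11:58199556-58207591), another interferon gamma target, measured 37.7 to 89.6 CPM against 24.4 to 32.7 CPM (log2FC 0.82, adjusted p = 0.025), although the adjusted p was over 0.05 without X18 or without X38 (highest 0.073). Of 2 further genes named after their values were seen, the receptor Cxcr3 rose (log2FC 0.73, adjusted p = 0.015), and the chemokine Cxcl10 measured 1.43 to 12.1 CPM against 0.947 to 2.23 CPM (log2FC 0.86, adjusted p = 0.29). Among the 16 tested genes of this axis 5 rose and none fell. Of 20 genes of the type I interferon response none passed in either direction, among them Isg15 (log2FC -0.29, adjusted p = 0.49) and Irf7 (log2FC -0.20, adjusted p = 0.68).

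Type 2 cytokines were near the limit of detection in both groups. Il13, the main inducer of mucus, held at most 2 counts in any PBS.CS library and measured 0 to 0.458 CPM (median 0.110) in HDM.CS, 7 of 10 libraries lying above all of PBS.CS. Its adjusted p of 0.047 was over 0.05 in 12 of the 20 fits that left out 1 library, all but those without X14, X18, X58, X74, X98, X114, X138 or X194 (highest 0.13), and was 0.065 without X74 and X173 together. Il4 measured 0 to 0.373 CPM against 0.0728 to 0.310 CPM (log2FC 0.04, adjusted p = 0.98), and Il5, named after its values were seen, 0.0762 to 0.496 CPM against 0.0425 to 0.193 CPM (adjusted p = 0.28). Il13 was the only 1 of 16 tested type 2 cytokine and receptor genes to pass. Among genes of eosinophils and mast cells 4 rose, where 7.52% of all genes tested rose. Ccl11, the eosinophil attractant eotaxin, measured 4.08 to 32.99 CPM against 1.69 to 3.28 CPM without overlap (log2FC 2.01 ± 0.49, adjusted p = 0.00177), and Prg2, the major basic protein of eosinophil granules, had a log2FC of 2.25 (adjusted p = 1.26e-04). The eotaxin receptor Ccr3 measured 1.70 to 3.97 CPM against 1.07 to 4.71 CPM (adjusted p = 0.90), and 2 of 11 eosinophil and eotaxin genes rose. Of 13 mast cell and basophil genes 2 rose, the mucosal mast cell proteases Mcpt1 (0.419 to 3.47 CPM against 0 to 0.276 CPM, log2FC 3.58) and Mcpt2 (0.282 to 2.33 CPM against 0 to 0.213 CPM, log2FC 3.87), members of a family of similar sequences between which reads could be divided. Cpa3, the carboxypeptidase of mast cells, measured 0.472 to 1.51 CPM against 0.288 to 0.994 CPM (adjusted p = 0.84).

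Some genes of mucus-making epithelium rose, with a wide spread. Clca1, a secreted regulator of goblet cells, measured 1.33 to 106.7 CPM in HDM.CS (median 11.5) and 0.164 to 3.57 CPM in PBS.CS (median 0.928), and 9 of the 10 HDM.CS libraries exceeded all of PBS.CS (log2FC 4.40 ± 1.40, adjusted p = 0.025, 0.061 without X74 and X173 together and 0.052 without X78). Itln1, an intelectin secreted with mucus, measured 3.78 to 12.8 CPM against 0.448 to 1.22 CPM without overlap (log2FC 3.35 ± 0.54, adjusted p = 6.26e-07). The trefoil peptide Tff2 (log2FC 2.57, adjusted p = 3.07e-04) and the gel-forming mucin Muc5b (log2FC 1.18, adjusted p = 3.31e-04) rose too, while Muc5ac measured 2.87 to 16.4 CPM against 2.04 to 3.65 CPM (log2FC 1.29, adjusted p = 0.058). With only the 80 parenchyma libraries at 11 weeks in the fit the adjusted p of Muc5ac was 6.09e-04, and in the fit of 160 libraries it was under 0.05 without X18 or without X58 (lowest 0.031). Muc5ac also passed with edgeR (adjusted p = 4.24e-04) and with DESeq2 (adjusted p = 1.23e-04). In the goblet cell list 4 of 17 genes rose and 1 fell. Club cells are the secretory cells of small airways. Scgb1a1 fell (14900 to 30880 CPM against 19350 to 59870 CPM, log2FC -0.47, adjusted p = 0.041), as did the cytochrome Cyp2f2 (log2FC -0.61, adjusted p = 2.28e-05) and the glutathione transferase Gsta3 (log2FC -0.70, adjusted p = 0.016). The adjusted p of Scgb1a1 was over 0.05 in 12 of the 20 fits that left out 1 library, all but those without X14, X34, X54, X74, X98, X118, X138 or X178 (highest 0.14), and was 0.17 without X74 and X173 together. Among 14 club cell genes 7 fell and 1 rose, Scgb3a1, a secretoglobin of other secretory cells (log2FC 1.12), which did not pass with DESeq2 (log2FC 0.97, adjusted p = 0.096). None of 20 ciliated cell genes passed.

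**Figure D3:**
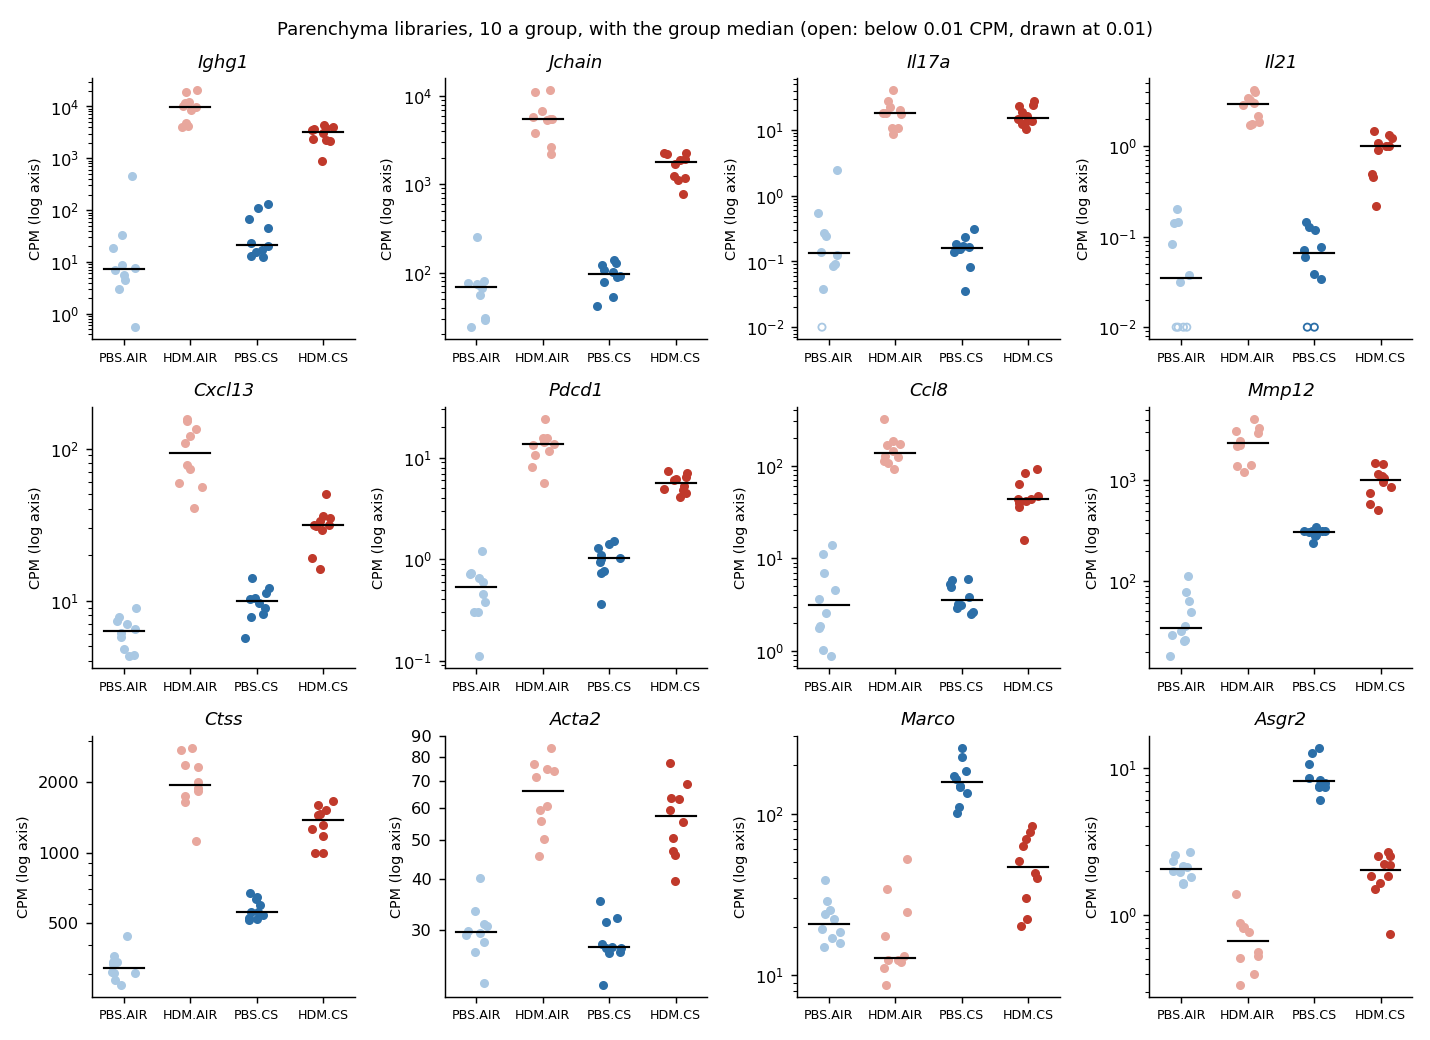
CPM on a log axis for 12 genes in each of the 40 parenchyma libraries without DEX (10 a group, horizontal bars at the group median), ordered PBS.AIR, HDM.AIR, PBS.CS and HDM.CS from left to right. In the 2 right-hand groups of every panel the HDM.CS points do not overlap the PBS.CS points, and they lie above them in all panels except those of Marco and Asgr2.

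Macrophage genes divided into those that rose, those that fell and those that did not pass. Mmp12 (chr9:7344381-7369499), the elastase of lung macrophages, measured 511 to 1476 CPM in HDM.CS (median 1015) and 238 to 345 CPM in PBS.CS (median 309.8), with a log2FC of 1.63 ± 0.29 (adjusted p = 5.8e-06). Arg1, the arginase of alternatively activated macrophages, measured 1.73 to 47.1 CPM against 0.583 to 1.73 CPM, 1.732 CPM in the lowest HDM.CS library and 1.726 CPM in the highest PBS.CS library (log2FC 3.13 ± 0.71, adjusted p = 6.27e-04). Retnla, another marker of alternatively activated macrophages, and Chil1 did not pass. Retnla measured 278 to 1340 CPM against 457 to 899 CPM (log2FC 0.29, adjusted p = 0.70), and the chitinase-like Chil1 measured 1853 to 3249 CPM against 1723 to 3156 CPM (log2FC -0.01, adjusted p = 0.99). The related Chil3, named after its values were seen, measured 1654 to 5486 CPM against 1301 to 2566 CPM (log2FC 1.03, adjusted p = 0.056). Its adjusted p was 0.00709 with only the 80 parenchyma libraries in the fit and under 0.05 without X58 or without X173 (lowest 0.036). Chil3 also passed with edgeR (adjusted p = 0.029) and with DESeq2 (adjusted p = 0.024). In the alternatively activated list 5 of 15 genes rose and 1 fell, the chemokine Ccl17 (17.2 to 39.2 CPM in PBS.CS and 8.18 to 16.7 CPM in HDM.CS, log2FC -0.98, adjusted p = 4.68e-04).

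Lipid-laden and resorptive macrophage genes were also divided, with 6 of 21 rising and 1 falling. The acid phosphatase Acp5 (log2FC 1.35) and the lipid-sensing receptor Trem2 (log2FC 0.90) rose, each with 9 of 10 HDM.CS libraries above all of PBS.CS. Marco, a scavenger receptor of alveolar macrophages, fell from 100 to 254 CPM (median 155.9) to 20.03 to 83.8 CPM (median 46.97) without overlap (log2FC -1.82 ± 0.29, adjusted p = 3.08e-07). Gpnmb, a glycoprotein of foam cells, measured 436 to 670 CPM against 236 to 464 CPM (log2FC 0.66, adjusted p = 0.083, and 0.020 with only the 80 parenchyma libraries).

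Chemokines and receptors of monocytes divided in a similar way. Ccl8, a ligand of several monocyte receptors, measured 15.7 to 92.6 CPM against 2.52 to 5.92 CPM (log2FC 3.58 ± 0.44, adjusted p = 7.5e-11). Ccl2, by contrast, measured 4.20 to 19.0 CPM against 8.75 to 24.4 CPM and fell (log2FC -0.72, adjusted p = 0.037). Its adjusted p was over 0.05 in 9 of the 20 fits that left out 1 library (X14, X34, X54, X74, X138, X158, X178, X194 or X198, highest 0.14), and was 0.12 with edgeR and 0.096 with DESeq2. In this list 6 of 16 genes rose and 2 fell. Of 5 myeloid genes that the study followed up, whose choice drew on HDM and PBS libraries of this series, Ptafr, Clec7a and Itgax rose (log2FC 0.88, 0.74 and 0.65). The transcription factor Spi1, also called PU.1, measured 37.1 to 78.8 CPM against 42.4 to 69.8 CPM (log2FC 0.10, adjusted p = 0.80), and the interleukin 1 receptor antagonist Il1rn measured 63.01 to 203.2 CPM against 51.3 to 113.9 CPM (log2FC 0.41, adjusted p = 0.30). Itgax did not pass without X74 and X173 together (adjusted p = 0.079), nor in the 10 fits without X34, X38, X78, X94, X118, X138, X154, X158, X173 or X198 (highest 0.070).

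Receptors for fungal and mite carbohydrates rose by small amounts. Clec7a (chr6:129461591-129472779), which encodes the beta-glucan receptor Dectin-1, measured 418 to 809 CPM against 242 to 566 CPM, 6 HDM.CS libraries lying above all of PBS.CS (adjusted p = 0.017). Clec4e and Clec4d, which encode 2 partner receptors for glycolipids, had log2FC of 1.27 and 1.01. Among 20 C-type lectin and Toll-like receptor genes 12 rose and none fell, with a median log2FC of 0.55. Of 20 complement genes 12 rose and none fell, with a median log2FC of 0.36, among them the receptor C3ar1 (34.5 to 65.9 CPM against 15.5 to 29.7 CPM, log2FC 0.91, adjusted p = 2.82e-08), C4b (log2FC 0.87) and the alternative pathway protease Cfb (log2FC 0.84). C3 itself measured 911 to 1294 CPM against 716 to 1168 CPM (log2FC 0.18, adjusted p = 0.39). Ctss (chr3:95526786-95556403), the protease that trims the invariant chain of MHC class II, measured 991 to 1664 CPM against 513 to 670 CPM (log2FC 1.21 ± 0.15, adjusted p = 2.89e-11). It was 1 of 2 genes to rise among 15 of the class II pathway, the other being Ifi30 (log2FC 0.43). The class II chain H2-Aa (log2FC 0.35, adjusted p = 0.17) and the invariant chain Cd74 (log2FC 0.26, adjusted p = 0.30) did not pass. H2-Aa passed in a fit of the 20 libraries alone (adjusted p = 0.00271) and with quality weights (adjusted p = 0.038).

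Promoters of 6 of the genes above are printed because they show which sequence elements lie next to genes of the IL-17, interferon gamma and macrophage groups. Each is the 250 bases before the RefSeq start site on GRCm38.p6, written 5′ to 3′ on the strand of the gene. Capitals mark matches, on either strand, to the STAT6 palindrome (TTC and GAA 4 bases apart), the other STAT palindrome (TTC and GAA 3 bases apart), the interferon response element (GAAA repeated, 2 bases apart) or the PU.1 motif (GAGGAAGT). Positions are counted back from the start site.
Il17a (chr1:20730655-20730904, plus strand): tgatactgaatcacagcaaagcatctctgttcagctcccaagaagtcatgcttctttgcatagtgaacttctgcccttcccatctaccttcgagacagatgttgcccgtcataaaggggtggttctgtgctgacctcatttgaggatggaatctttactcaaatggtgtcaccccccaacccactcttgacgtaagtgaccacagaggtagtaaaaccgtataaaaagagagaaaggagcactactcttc
Il17f (chr1:20784271-20784520, minus strand): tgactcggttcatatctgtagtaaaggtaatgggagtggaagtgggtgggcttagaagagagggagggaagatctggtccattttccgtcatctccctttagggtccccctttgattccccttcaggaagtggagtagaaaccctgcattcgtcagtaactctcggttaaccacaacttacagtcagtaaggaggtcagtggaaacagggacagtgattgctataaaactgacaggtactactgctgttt
Igtp (chr11:58199306-58199555, plus strand): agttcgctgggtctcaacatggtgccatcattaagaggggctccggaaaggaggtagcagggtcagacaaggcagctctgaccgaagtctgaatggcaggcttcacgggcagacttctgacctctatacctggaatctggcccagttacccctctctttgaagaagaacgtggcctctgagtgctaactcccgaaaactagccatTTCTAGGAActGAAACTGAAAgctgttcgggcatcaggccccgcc
Ctss (chr3:95526536-95526785, plus strand): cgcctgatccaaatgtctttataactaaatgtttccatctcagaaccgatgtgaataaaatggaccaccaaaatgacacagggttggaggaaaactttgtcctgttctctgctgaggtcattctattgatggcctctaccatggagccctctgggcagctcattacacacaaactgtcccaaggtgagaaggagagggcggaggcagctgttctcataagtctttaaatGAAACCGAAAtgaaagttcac
Mmp12 (chr9:7344147-7344396, plus strand): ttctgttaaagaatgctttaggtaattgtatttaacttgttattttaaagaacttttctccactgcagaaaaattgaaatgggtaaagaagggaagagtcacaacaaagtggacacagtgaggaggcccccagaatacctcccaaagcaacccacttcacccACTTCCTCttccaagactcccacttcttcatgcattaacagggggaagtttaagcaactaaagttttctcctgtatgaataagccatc
Clec7a (chr6:129472780-129473029, minus strand): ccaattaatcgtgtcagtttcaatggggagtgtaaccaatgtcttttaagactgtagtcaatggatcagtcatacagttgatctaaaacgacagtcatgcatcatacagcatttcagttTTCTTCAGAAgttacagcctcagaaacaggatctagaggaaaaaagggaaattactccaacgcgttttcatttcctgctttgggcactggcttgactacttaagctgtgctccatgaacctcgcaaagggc

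No match lies in the printed bases of Il17a or Il17f. Igtp holds the other STAT palindrome at -45 to -37 and an interferon response element at -34 to -25, Ctss holds an interferon response element at -21 to -12, Mmp12 holds the PU.1 motif on the opposite strand at -88 to -81, and Clec7a holds the STAT6 palindrome at -131 to -122. Across the full 300 bases of each entry, which also take in 50 bases after the start, promoters were found for 225 of the 495 genes called higher, 30 of the 41 called lower and 12922 of the 18250 tested. An interferon response element was present in 8.44% of the promoters of genes called higher, 6.67% of those called lower and 3.85% of all. The PU.1 motif was present in 6.22%, 6.67% and 3.83%, the other STAT palindrome in 8.44%, 10.0% and 8.45%, and the STAT6 palindrome in 7.56%, 0% and 6.73%. These shares are descriptions and were not tested, and a match is not a bound site.

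Some matrix and remodelling genes rose, where 7.52% of all genes tested rose. Slpi, a secreted inhibitor of neutrophil elastase, measured 152.2 to 657 CPM against a lowest of 61.6 and a median of 86.9 CPM in PBS.CS, without overlap (log2FC 2.10 ± 0.21, adjusted p = 1.68e-14). Inhba, which encodes the activin A subunit, measured 9.74 to 26.2 CPM against 3.18 to 7.63 CPM (log2FC 1.72 ± 0.32, adjusted p = 1.95e-05), and the activin antagonist Fst rose beside it (log2FC 1.36). Of 23 matrix proteases and inhibitors 11 rose and none fell. Col24a1, a minor fibrillar collagen, measured 8.67 to 23.2 CPM against 3.53 to 7.62 CPM (log2FC 1.32), and Col1a1, the main fibrillar collagen, rose by a log2FC of 0.50 (adjusted p = 0.041, 0.12 without X74 and X173 together, and over 0.05 in the 10 fits without X34, X38, X58, X78, X134, X138, X158, X173, X194 or X198, highest 0.13). Collagens gave 6 rises of 20 and no fall, and non-collagen matrix genes gave 6 of 26 and no fall, with Tnc (log2FC 1.01) and Thbs4 (0.327 to 4.98 CPM against 0.0328 to 0.468 CPM, log2FC 3.73 ± 0.93, adjusted p = 0.00226) among them.

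Contractile smooth muscle genes rose as well. Acta2, smooth muscle actin, measured 39.5 to 77.3 CPM in HDM.CS (median 57.3) and 21.9 to 35.2 CPM in PBS.CS (median 27.1) without overlap (log2FC 1.00 ± 0.22, adjusted p = 3.15e-04). Tagln (59.3 to 101 CPM against 39.9 to 53.4 CPM, log2FC 0.67), Actg2 (6.24 to 11.9 CPM against 2.47 to 4.14 CPM, log2FC 1.39) and Cnn1 (6.95 to 13.2 CPM against 3.27 to 5.14 CPM, log2FC 1.25) did not overlap either, and Myh11 rose with overlap (log2FC 0.78). These were 5 of 15 smooth muscle genes and none fell. The adjusted p of Cnn1 was 0.045, and it was over 0.05 without X74 and X173 together (0.082) and in 18 of the 20 fits that left out 1 library, all but those without X98 or X158 (highest 0.074).

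Several further gene lists held few genes that passed, or none. Of 24 cell cycle genes none passed, and Mki67, the proliferation marker, measured 33.3 to 58.3 CPM in HDM.CS and 24.01 to 57.9 CPM in PBS.CS (log2FC 0.13, adjusted p = 0.81). The summed level of the neutrophil granule and alarmin genes was 1405 to 2981 CPM against 1108 to 2425 CPM. Its leading members, the calprotectin genes S100a8 (log2FC 0.24, adjusted p = 0.71) and S100a9 (log2FC 0.01, adjusted p = 0.99), did not pass. Among its 16 tested genes 3 rose, with Mpo, myeloperoxidase, going from 0 to 0.196 CPM to 0.0414 to 0.411 CPM, and 1 fell, Camp, the cathelicidin, from 0.558 to 3.45 CPM to 0.207 to 0.695 CPM (log2FC -1.53, adjusted p = 4.29e-05). Of 17 alveolar type II genes 1 fell, the lysozyme Lyz1 (log2FC -0.88, adjusted p = 4.92e-04), and of 14 alveolar type I genes 1 fell, the water channel Aqp5 (log2FC -0.35, adjusted p = 0.049). Aqp5 did not pass without X74 and X173 together (adjusted p = 0.078), nor in 15 of the 20 fits that left out 1 library, all but those without X18, X54, X98, X138 or X173 (highest 0.088). The leading genes of both lists did not pass in the fit of 160 libraries. Sftpc measured 8591 to 12760 CPM against 11460 to 18990 CPM (log2FC -0.36, adjusted p = 0.25) and Ager, of alveolar type I cells, 1789 to 2090 CPM against 2021 to 2777 CPM (log2FC -0.31, adjusted p = 0.31). With the spread estimated in the 80 parenchyma libraries alone, the adjusted p was 0.00917 and 7.26e-04.

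Genes called lower were few and of mixed function. Asgr2, a galactose-binding lectin, fell from 6.03 to 13.6 CPM (median 8.09) to 0.745 to 2.67 CPM (median 2.02), a log2FC of -2.19 ± 0.20 (adjusted p = 7.93e-18). Zmat4, a zinc finger gene, fell from 0.827 to 2.03 CPM to 0.0828 to 0.573 CPM (log2FC -2.35 ± 0.29, adjusted p = 7.5e-11), and Slc5a12, a transporter of lactate, from 1.34 to 2.85 CPM to 0.0775 to 0.955 CPM (log2FC -2.29). The glutamate receptor subunit Gria1 fell from 6.78 to 12.4 CPM to 1.16 to 4.50 CPM (log2FC -1.89 ± 0.25, adjusted p = 1.1e-09). All 4 separated the groups completely.

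Other falls without overlap were those of Cdkn2a, a cell cycle inhibitor and mark of senescence (1.52 to 3.34 CPM to 0.411 to 1.33 CPM, log2FC -1.37), Serpinf2, the antiplasmin gene (log2FC -1.36), Cd200r2, a relative of the inhibitory CD200 receptor (3.48 to 6.32 CPM to 1.10 to 3.35 CPM, log2FC -1.31), Vstm2a (log2FC -1.18) and Grp, gastrin-releasing peptide (log2FC -1.15). Esm1, a proteoglycan of sprouting endothelium, fell from 25.7 to 67.9 CPM to 7.27 to 26.7 CPM with 9 of 10 libraries below all of PBS.CS (log2FC -1.77 ± 0.26, adjusted p = 4.62e-08). Cd209f and Cd209g, lectins of neighbouring and similar sequence that were named after their values were seen, had log2FC of -2.42 and -3.23 from at most 20 counts a library. Among 28 tested genes of xenobiotic metabolism 6 fell and 1 rose. The red blood cell genes Slc4a1 (log2FC -0.9997, adjusted p = 0.00438) and Alas2 (log2FC -0.79, adjusted p = 0.033) fell (the latter over 0.05 without X74 and X173 together, 0.052, and in the 7 fits without X38, X78, X98, X118, X134, X154 or X194, highest 0.078). With edgeR and DESeq2 neither passed (adjusted p = 0.064 and 0.082 for Slc4a1, 0.11 with both for Alas2). They were 2 of 7 on that list, whose summed level was 5734 to 12120 CPM against 7403 to 27030 CPM. The part of blood content in the other falls was not tested.

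The same allergen course in air gave larger changes. In HDM.AIR against PBS.AIR parenchyma 2379 genes were called higher and 1117 lower, against 495 and 41 under smoke. Of the 495, 478 were also called higher in air, and of the 41, 25 were also called lower in air. The effect under smoke was more positive than in air for 3150 genes (17.3%) and more negative for 3419 (18.7%) by the test of the difference itself. Among the 1814 genes that rose or fell under smoke 1129 differed from air, 1088 of them with the smaller change under smoke and 41 with the larger. Genes called higher in air had a median log2FC of 1.76 there and 0.54 under smoke, and genes called lower in air had -1.34 and -0.30.

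**Figure D4:**
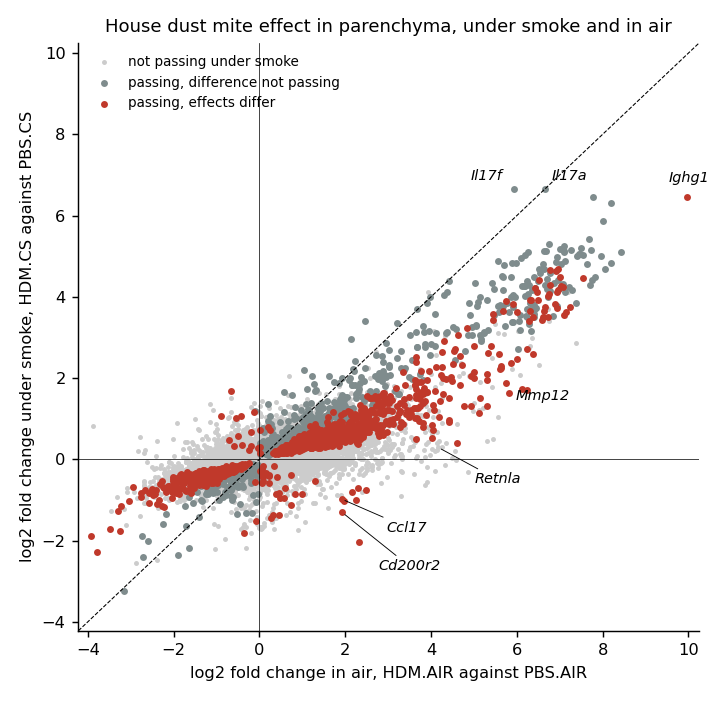
Log2 fold change of HDM against PBS in parenchyma in air (horizontal axis) and under smoke (vertical axis) for the 18250 genes tested, with genes that passed under smoke in red where the difference between the effects also passed and in dark grey where it did not. Of the 1129 red points, 1088 had the smaller change under smoke than in air (the dashed line marks equal effects), Il17f and Il17a lie on or near that line, and Ccl17 and Cd200r2 lie on the right below 0.

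Genes differed widely in how far their HDM effect was reduced. Il17a had a log2FC of 6.65 in air and 6.65 under smoke, a difference of -0.00 ± 0.94 (SE, adjusted p = 1.00), and Il17f had 5.92 in air (difference 0.74 ± 0.91, adjusted p = 0.56). With standard errors of this size, a difference of 1 on the log2 scale was not detectable. Clca1, Itln1 and Tff2 likewise differed by -0.01, 0.14 and -0.14 from their effects in air, with adjusted p of 0.90 or more and standard errors of 0.71 to 1.61. Ighg1 reached 4040 to 20520 CPM in HDM.AIR and its effect was smaller under smoke (difference -3.49 ± 0.84, adjusted p = 3.85e-04). With edgeR's quasi-likelihood test that difference was -1.55 (adjusted p = 0.11) and with DESeq2 -1.54 (adjusted p = 0.15). In PBS.AIR, X126 held 449.3 CPM of Ighg1 and the next highest library, X106, held 33.6 CPM. The same libraries were highest for Il17a in PBS.AIR, at 2.51 and 0.548 CPM. No air library was left out in turn, so the part of X126 in the differences from air was not tested. The median log2FC of the variable segments was 6.24 in air against 3.74.

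Many macrophage genes had smaller effects under smoke. Mmp12 measured 18.1 to 113.2 CPM in PBS.AIR and 1204 to 4033 CPM in HDM.AIR, a log2FC of 5.81 in air (difference -4.17 ± 0.41, adjusted p = 8.18e-16). Its level in PBS.CS, 238 to 345 CPM, was already above that of every PBS.AIR library. Retnla rose in air from 14.1 to 218 CPM to 454 to 2453 CPM (difference -3.87 ± 0.46, adjusted p = 2.49e-12), while PBS.CS held 457 to 899 CPM. Inhba differed by -4.51 ± 0.70 and Spi1 by -1.40 ± 0.21 (adjusted p = 3.84e-08 and 1.93e-08). Of the 21 lipid-laden and resorptive macrophage genes, the difference from air was negative and passed in 17.

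The smallest p-values of the difference belonged to genes that rose in air and rose by less, or did not pass, under smoke. Pigr, the receptor that carries polymeric antibody across epithelium, measured 49.9 to 218 CPM in PBS.AIR, 1141 to 1730 CPM in HDM.AIR, 524 to 1097 CPM in PBS.CS and 872 to 1389 CPM in HDM.CS (difference -3.48 ± 0.21, adjusted p = 3.59e-31). C3 (difference -2.12), the lipopolysaccharide co-receptor Cd14 (-2.83), the metalloreductase Steap4 (-2.73) and the amino acid transporter Slc6a20a (-2.67) followed. In the other direction, the smallest p-values belonged to genes that fell in air and fell by less, or did not pass, under smoke, which were the BMP antagonist Chrdl1 (difference 2.21), the insulin receptor substrate Irs1 (1.46), the TGF-beta co-receptor Tgfbr3 (1.38), Palmd (1.05) and the kinase-like Trib2 (0.90). Tgfbr3 fell under smoke (log2FC -0.32), with an adjusted p over 0.05 in the fits without X38, X54, X94, X138, X154 or X158 (highest 0.086). Slc6a20a did not pass under smoke (log2FC -0.35, adjusted p = 0.054) except in the fits without X14, X38, X78, X94, X98 or X173 (lowest 0.035). Of 20 endothelial genes 18 fell in air and 2 fell under smoke, and the difference was positive and passed in 17. All 24 cell cycle genes rose in air, and the difference was negative and passed in all 24.

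**Figure D5:**
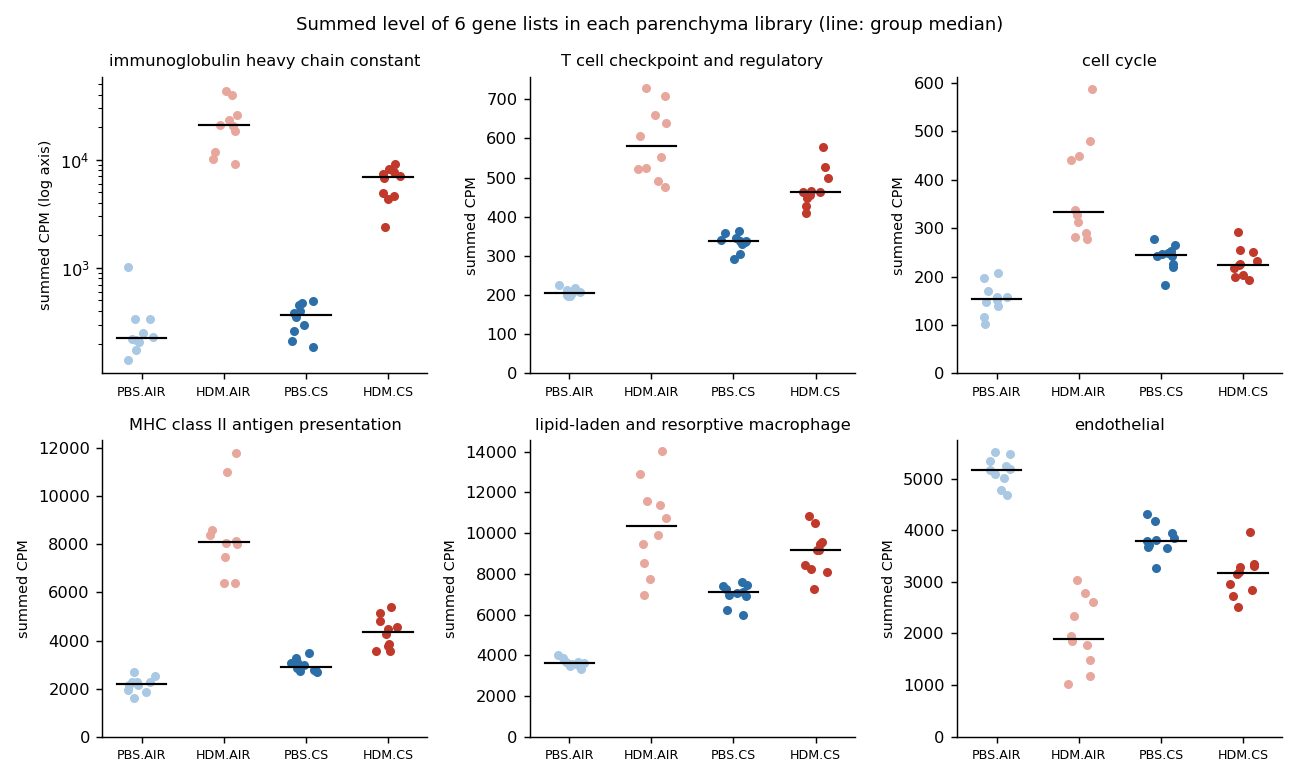
Summed CPM of the genes of 6 lists in each of the 40 parenchyma libraries without DEX, with the group median as a line and a log axis for the immunoglobulin panel. In the cell cycle panel the PBS.CS and HDM.CS points overlap at 182.3 to 276.5 CPM and 193.8 to 291 CPM, above most PBS.AIR points (101.8 to 207.4 CPM), while the immunoglobulin points of HDM.CS (2411 to 9035 CPM) lie above all of PBS.CS (at most 491 CPM) and below all of HDM.AIR.

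The levels of the control groups differed before any allergen was considered. Summed over the list, neutrophil granule and alarmin genes held 183.9 to 799.5 CPM in PBS.AIR, 1108 to 2425 CPM in PBS.CS and 1523 to 4093 CPM in HDM.AIR. Endothelial genes held 4684 to 5512 CPM in PBS.AIR, 3277 to 4316 CPM in PBS.CS, 2515 to 3957 CPM in HDM.CS and 1023 to 3032 CPM in HDM.AIR. The class II antigen presentation genes held 1623 to 2701 CPM in PBS.AIR, 2709 to 3476 CPM in PBS.CS, 3556 to 5407 CPM in HDM.CS and 6374 to 11810 CPM in HDM.AIR. The class II sums of the 4 groups did not overlap, while the endothelial sums of HDM.CS overlapped those of PBS.CS and of HDM.AIR. The class II sums include the protease Ctss, which held 1183 of the 3557 CPM in X178 (HDM.CS) and 670.2 of the 3476 CPM in X173 (PBS.CS). The separation of HDM.CS from PBS.CS in these sums therefore rests on Ctss, and H2-Aa and Cd74 did not pass between them. Skeletal muscle genes summed to 4470 CPM in the highest HDM.AIR library, against at most 128.3 CPM in the 20 libraries under smoke, and the part of that library in the differences from air was not tested.

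A small set of genes passed in opposite directions under the 2 exposures with a difference that passed, 6 of them higher and 15 lower under smoke. Ccl17 rose in air (log2FC 1.92) and fell under smoke (difference -2.89 ± 0.37, adjusted p = 6.83e-11), and Cd200r2 rose in air (log2FC 1.93) from 0 to 0.493 CPM (difference -3.23 ± 0.74, adjusted p = 1.89e-04). Ccl2 (log2FC 2.31 in air), Cxcl2 (2.48) and Csf2 (0.60) also rose in air (differences -3.02, -3.22 and -1.31). Marco and Cdkn2a fell under smoke and did not pass in air (differences -1.47 and -1.83, adjusted p = 0.00427 and 1.74e-05). Marco measured 15.0 to 38.6 CPM in PBS.AIR and 8.70 to 52.2 CPM in HDM.AIR, below all 10 PBS.CS libraries.

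Airway and parenchyma libraries carry neighbouring codes, but no label says which came from 1 mouse, so the fit treated them as independent. Against the airway of mice under the same smoke, the effect in parenchyma differed for far fewer genes, 67 with a more positive (0.367%) and 0.608% of genes with a more negative change. HDM called 711 genes higher and 457 lower in airway, and 374 of the 495 called higher and 20 of the 41 called lower in parenchyma were called in the same direction there. The smallest p-values with a smaller change in parenchyma belonged to the transporter Slc16a6 (difference -0.89 ± 0.15, adjusted p = 2.78e-04), Slpi (-1.75 ± 0.31), the elongation factor Ell2 (-0.58), the B cell receptor kinase Btk (-0.62) and the lysosomal sulfatase Galns (-0.65). Slpi measured 255 to 1805 CPM in HDM.CS airway against 35.7 to 93.7 CPM in PBS.CS airway. Clec7a (-1.22, adjusted p = 0.031), Itgax (-1.09, adjusted p = 0.047) and Il1rn (-1.18, adjusted p = 0.045) also had smaller effects in parenchyma, whereas Spi1 (-0.73, adjusted p = 0.057) and Ptafr (-0.69, adjusted p = 0.079) did not pass. Whether the differences of Clec7a, Itgax and Il1rn passed depended on the libraries in the fit. Their size stayed at -1.277 to -1.154, -1.135 to -1.041 and -1.276 to -1.091 when 1 library was left out. Without X74 and X173 together their adjusted p was 0.069, 0.066 and 0.088. In the fits that each left out 1 library, Clec7a did not pass in 2 (X58 or X178, highest 0.054), Itgax in 13 of 20, all but those without X38, X78, X94, X138, X154, X158 or X173 (highest 0.086), and Il1rn in 14 of 20, all but those without X18, X38, X78, X94, X118 or X198 (highest 0.092). Itgax and Il1rn also did not pass with edgeR (adjusted p = 0.073 and 0.089), DESeq2 (0.051 and 0.067) or quality weights (0.058 and 0.056). The counts of differences ranged from 0.142% to 0.416% and from 0.181% to 0.795% of genes when 1 parenchyma library was left out, with 26 and 33 without X58 and 26 and 39 without X178.

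Contractile genes moved in opposite directions in the 2 tissues. Acta2 measured 99.6 to 290 CPM in HDM.CS airway (median 148.2) and 89.5 to 634 CPM in PBS.CS airway (median 275), a log2FC of -0.70 (adjusted p = 0.010), where it had risen in parenchyma. The difference was 1.69 ± 0.31 (adjusted p = 0.00133). Tagln (difference 1.45 ± 0.29, adjusted p = 0.0037), Myh11 (1.46 ± 0.31, adjusted p = 0.00916), Cnn1 (2.25 ± 0.50, adjusted p = 0.013) and Actg2 (1.99 ± 0.49, adjusted p = 0.027) followed the same pattern, and each fell in airway. With 1 parenchyma library left out the difference kept its sign and passed each time for these 5 genes, while without X74 and X173 together the adjusted p of Actg2 was 0.052. Acta2 was higher in every airway library than in any parenchyma library, and the part of the dissection in the airway values was not tested. The semaphorin Sema3d (1.52) and the prion-related Sprn (2.61) were also among the 5 smallest p-values in this direction.

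With DEX in week 11 the HDM effect under smoke called 611 genes higher and 78 lower. Of those called higher and lower without DEX, 353 and 17 were called in the same direction with it. The genes called higher without DEX had a median log2FC of 1.90 with it, and those called lower had -0.84. No gene passed the test of the difference (0 of 18250, lowest adjusted p = 0.21 in limma-voom), while 1431 had an unadjusted p under 0.05. edgeR found 0 and DESeq2 found 5 more positive and 2 more negative. Il17a measured 3.11 to 13.5 CPM in HDM.CS.DEX against 0 to 0.289 CPM in PBS.CS.DEX, and Mmp12 218 to 874 CPM against 66.3 to 177.1 CPM, where the groups without DEX held 511 to 1476 and 238 to 345 CPM. The log2FC with DEX was 6.47 for Il17a and 2.00 for Mmp12 (adjusted p of the difference 0.98 and 0.81).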

How the data were processed

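RNA was extracted with TRIzol per the labels (TRI Reagent per the study's methods) from dissected parenchyma and airway and sequenced as single reads on a NovaSeq. The submitters' processing notes name bcl2fastq 2.20.0.422, STAR 2.5.1b, RSEM 1.2.31, kallisto 0.44.0 and the mm10 build. Which tool made the count table, and whether strand was used, was not given in the sources used here, so reads of a gene and an overlapping antisense gene cannot be told apart. The values deposited by the authors are expected counts per gene, 20.29% of the non-zero values not whole (tolerance 1e-06), and were rounded to whole numbers. Of 43346 identifiers 42462 matched GENCODE M21 (GRCm38), which gave symbols and coordinates, 23106 of them in the same version. Promoters are from RefSeq.

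All 160 libraries of week 11 entered 1 limma-voom fit (limma 3.58.1, edgeR 4.0.16, R 4.3.3) with 16 groups and TMM scaling, after a filter of about 10 counts in at least 9 libraries, which left 18250 genes. Benjamini-Hochberg adjustment was over all genes, and differences between HDM effects were interaction contrasts. Fold changes are fitted log2 values. Depth was 23795405 to 33654831 counts a library, and a count of 3 was taken as the floor for a gene. Tested on simulated data, the fit recovered 50 of 50 genes at a log2FC of 2, 49 of 50 at 1 and 42 of 50 at -1. The simulation changed only genes well above the floor, gave all genes the same spread and gave all groups otherwise equal means. These rates therefore do not give the power for the real genes, least of all those at few counts. Permutation tests used 100000 resamples (scipy 1.17.1). Gene lists were described by counts and medians without a set test.

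Named genes were the 10 largest rises and falls without overlap at a mean of at least 1 CPM, the 5 smallest p-values in each direction of each contrast, the first 2 and up to 4 most changed genes of each list, and 5 genes the study followed. Genes of a list that did not pass could be named with their values, and any other is said to have been named after its values were seen. Some genes that met the rule are not reported here. The members and lists were chosen with earlier results of these data known. Results were recomputed with DESeq2 1.42.0 and edgeR's quasi-likelihood test, other scaling and filters, other sets of libraries, quality weights and leaving out each of the 20 libraries compared. Chosen after seeing the data were the fit without X74 and X173, the code range as a block and edgeR on the 80 parenchyma libraries. Libraries of other weeks and treatments were not used beyond the fit.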

Additional observations from a re-analysis of the deposited data

Results flagged for a closer look

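A single library lay far from the other 9 of its group, by Dixon's criterion for 10 values, in 30 of the 298 gene and group combinations tested, where chance alone flags about 1 in 20. Of these, 21 were in PBS.CS and 9 in HDM.CS, and 10 of the 21 belonged to X173 and 7 to X94. X173 held the highest PBS.CS values of Prg2 (0.902 CPM), Acp5 (100.4), Mpo (0.196), Camp (3.45), Clec7a (565.6), Hp (1704), Lyz1 (1558), Tff2 (7.77), Scgb1a1 (59870) and Sftpc (18990 CPM). X94 held the lowest PBS.CS values of Chil1 (1723 CPM), Gpnmb (236.5), Pdcd1 (0.361), Cfb (146.1), Orm1 (9.15) and Orm2 (3.44 CPM) and the highest of Grp (6.39 CPM). X154 was the lowest PBS.CS library for Mmp12 (237.5 CPM) and Foxp3 (0.517 CPM), and X194 was the lowest for Lag3 (0.364 CPM) and the highest for Ighe (0.0728 CPM). In HDM.CS, X178 was the lowest for Ighg1 (895.5 CPM) and Spi1 (37.1 CPM), and X58 was the lowest for Cfb (213.4 CPM), Orm2 (5.61 CPM) and Pf4 (17.8 CPM). Asgr2 was lowest in X138 (0.745 CPM), Il4 was at 0 in X118, Irf7 was highest in X38 (53.1 CPM) and Frzb was highest in X98 (0.818 CPM).

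The HDM effect under smoke differed from that in air, by the limma-voom interaction test, for every gene that follows, given as the difference in log2FC. It was more negative under smoke for Pigr (-3.48), C3 (-2.12), Cd14 (-2.83), Steap4 (-2.73), Slc6a20a (-2.67), Marco (-1.47), Cdkn2a (-1.83), Camp (-1.43), Mki67 (-1.54), Spi1 (-1.40), Ighg1 (-3.49), Mmp12 (-4.17), Retnla (-3.87) and Inhba (-4.51). The same was true of the genes with opposite directions, Ccl17 (-2.89), Csf2 (-1.31), Cd200r2 (-3.23), Ccl2 (-3.02) and Cxcl2 (-3.22). It was more positive for Chrdl1 (2.21), Irs1 (1.46), Tgfbr3 (1.38), Palmd (1.05) and Trib2 (0.90). Ighg1 did not pass this test with edgeR or DESeq2.

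The effect in parenchyma differed from that in airway in the same way for Tagln (1.45), Acta2 (1.69), Myh11 (1.46), Cnn1 (2.25), Actg2 (1.99), Sema3d (1.52) and Sprn (2.61), where it was more positive in parenchyma. It was more negative for Slc16a6 (-0.89), Ell2 (-0.58), Btk (-0.62), Galns (-0.65), Slpi (-1.75), Clec7a (-1.22), Itgax (-1.09) and Il1rn (-1.18).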

How the results depend on the processing

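Counts of genes are given here as a percentage of the genes tested, with the value as reported in brackets. Genes called higher (2.71%) were 1.30% of the 12187 genes tested where a CPM of at least 10 in 9 libraries was required, those called lower (0.225%) were 0.0492%, and those that rose (7.52%) were 6.55%. Genes called lower were 0.400% with DESeq2 and 0.395% with edgeR on the 80 parenchyma libraries. Genes that rose were 12.8% with library quality weights. Genes that fell (2.42%) were 3.90% with DESeq2, 4.67% in the 80 parenchyma libraries (4.80% with edgeR), 7.97% in the 20 libraries compared, 9.15% with the code range as a block there and 7.36% with quality weights. Leaving out 1 library gave 2.47% to 2.78% called higher and 0.197% to 0.241% called lower. Differences from airway more positive in parenchyma (0.367%) were 0.773% with edgeR, 1.08% with DESeq2, 1.28% with quality weights, 0.312% with the CPM filter, 0.164% without X74 and X173, and 0.142% to 0.416% without 1 library. The more negative ones (0.608%) were 0.384% with edgeR, 0.263% without X74 and X173 and 0.181% to 0.795% without 1 library. The first count fell by over 1.5 times without X14, X58, X74, X98, X114, X134, X178 or X194, and the second without X14, X54, X58, X74, X98, X114, X134 or X178. Differences with DEX (0) were 0.0274% more positive and 0.0110% more negative with DESeq2, 0.378% and 0.493% with quality weights, and 0.00334% more negative with no filter on low counts. The cause was not tested, except that the CPM filter tests fewer genes. The number of genes that differed from air stayed within 1.5 times under every alternative run, although with no filter it was 9.07% and 11.6% of the 29921 genes then tested, against 17.3% and 18.7%.

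Of the genes named, 3 with a log2FC near 0 changed sign. Il4 was -0.11 with quality weights and -0.0801 to 0.36 without 1 library. Chil1 was 0.0122 with quality weights, 0.0177 without X74 and X173 and -0.0720 to 0.0417 without 1 library. S100a9 was -0.000381 with DESeq2, -0.000631 with DESeq2 size factors, -0.00963 with the CPM filter, -0.0124 in the 20 libraries compared, -0.0108 with the code range as a block and -0.0669 to 0.12 without 1 library. The difference from air of Ighg1 had adjusted p-values of 0.109 with edgeR, 0.153 with DESeq2 and 0.135 with edgeR on the 80 parenchyma libraries, and 3.85e-04 in limma-voom. With edgeR Cd79a, Ccl2, Cxcl2, Slc4a1 and Alas2 no longer passed, and with DESeq2 Scgb3a1 also. Muc5ac, Chil3 and Sema3d, which did not pass between the groups as reported, passed with both tools. With no filter Ccl19, Igtp, Ccl2, Cxcl2, Col1a1, Tagln, Myh11, Cnn1 and Aqp5 did not pass, and with the CPM filter Ccl19, Cxcl9, Ccl11, Arg1, Clca1, Tff2, Thbs4, Col1a1, Cnn1 and Actg2. No paired analysis was possible because each library carries a code of its own and no label ties codes of different groups or tissues to a shared mouse, litter or cohort. The block by range of codes above was chosen after seeing the data. Genes at a few counts a library, such as Il13, Ighe, Il4 and Il5, are limited by depth.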

Other observations

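Inhibitors of Wnt signalling, dendritic cell genes and acute phase proteins moved in ways not described above. Frzb, a secreted Wnt antagonist, measured 0.487 to 0.818 CPM in HDM.CS and 0.0360 to 0.232 CPM in PBS.CS without overlap (log2FC 2.02 ± 0.50, limma-voom adjusted p = 0.00239). Its relative Sfrp1 measured 17.6 to 28.3 CPM against 6.13 to 10.1 CPM, also without overlap (log2FC 1.30 ± 0.21, adjusted p = 3.42e-07). Of 31 tested Wnt genes 4 rose and 2 fell, where 7.52% of all genes tested rose and 2.42% fell.

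Among 14 dendritic cell genes 4 rose and 2 fell. Clec9a, a receptor for dead cells on cross-presenting dendritic cells, measured 7.32 to 17.4 CPM against 3.83 to 6.43 CPM (log2FC 1.23, adjusted p = 1.17e-07), and Cd207, the Langerhans cell lectin, fell from 9.99 to 16.1 CPM to 4.45 to 10.1 CPM (log2FC -0.85, adjusted p = 1.76e-04). The platelet-activating factor hydrolase Pla2g7 measured 81.03 to 149.5 CPM against 34.7 to 60.4 CPM (log2FC 1.21 ± 0.12, adjusted p = 2.42e-14). The acute phase proteins Orm1 and Orm2 rose (log2FC 1.32 and 1.14), while haptoglobin, Hp, fell (log2FC -0.42, adjusted p = 0.012). Orm1 and Orm2 are neighbouring genes of similar sequence between which reads could be divided.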
